A study of Mus musculus with 686 samples.

Results

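The thymus of mice that flew to the International Space Station and came back alive (live animal return, LAR) is described here by its small RNA. Its libraries were chosen by their labels alone, as the thymus libraries of the 3 LAR arms, and they number 30 of the 686 libraries of the series. All came from female BALB/cAnNTac mice with no genetic change, and each arm held 10 mice, 5 of 3 months and 5 of 8 months. Flight (FL) mice spent 39.5 days on the station and were dissected 2 to 4 days after splashdown, following functional assays. The habitat ground controls (HGC) lived on Earth in the flight hardware with food, temperature, humidity and carbon dioxide matched to the flight record, and the vivarium controls (VGC) lived in ordinary cages. According to the methods, the return was delayed and the crowded transport housing lasted longer than planned, which was copied for HGC, while rough seas after splashdown had no ground counterpart. FL and HGC mice also shared a problem with mould on their food bars. FL against HGC therefore asks what flight and return add to the housing, and FL against VGC asks what flight, return and housing do together. Mice of different arms that carry the same number are different animals of the same age.

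The thymus is the organ in which T cell precursors divide, rearrange their antigen receptors and are selected. It is known to shrink with age and under stress, mostly through loss of the small, immature CD4+CD8+ thymocytes that make up the bulk of the organ. miR-181a, abundant in these cells, lowers the threshold of T cell receptor signalling, and the miR-17-92 cluster with its X-linked copy miR-106a-363 is high in dividing lymphoid precursors, where it represses inhibitors of growth and promoters of cell death. In whole tissue, fewer cells of a type and less RNA per cell cannot be told apart.

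A library held between 24.6 M and 87.1 M counts over the 7 RNA classes (M, 1000000), the median being 53.0 M. Of these, between 1.06 M and 7.98 M fell on miRNAs, the median being 4.85 M. HGC 12 and HGC 16 had the fewest miRNA counts, at 1.06 M and 1.36 M. The label was checked by the correlation of each library's miRNA profile with the median profiles of the 13 tissues of the series, thymus libraries included. Of the 30, 25 were closest to thymus. FL 2 and VGC 13 were closest to kidney, FL 11 and HGC 13 to spleen, and VGC 2 to brain with a weak r of 0.34. These 5 libraries and VGC 16, which resembled thymus at r = 0.88, belong to 11 sequencing pools in which tissues appear to have been exchanged, and each comparison is given with all 30 libraries and again without those pools, on 8 FL, 9 HGC and 7 VGC libraries. The pools were chosen from such label checks, with results of these data known, and fits that also leave out FL 1 or correct for age outside the pools were added after the data were seen. In the 24 libraries outside the pools the correlation with thymus ranged from 0.62 to 0.98, with a median of 0.74 in FL, 0.90 in HGC and 0.90 in VGC. FL 1 stayed in although it carried the highest liver, brain, and kidney and gut miRNA sums of those 24. The 3 given thymus markers, miR-181a-5p, miR-20b-5p and miR-106a-5p, together took 110530 to 234590 per 1000000 miRNA counts in FL (median 191230), 65149 to 300180 in HGC (median 178800) and 155720 to 414570 in VGC (median 257790). miR-181a-5p alone made up 18.0% of the miRNA counts on average. No library lacked a marker.

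The miRNAs on which the results turn fall into a few families that share a seed, the stretch from base 2 to base 8 that pairs with targets. The mature sequences are those of RefSeq (GRCm38.p6), 5′ to 3′, with the seed in capitals. They are shown because members of 1 family are encoded in different clusters, so that near-identical reads come from separate chromosomes. The first 4 share the seed of miR-17, with miR-17-5p and miR-20a-5p on the plus strand of chromosome 14 and miR-106a-5p and miR-20b-5p on the minus strand of the X chromosome.
miR-17-5p: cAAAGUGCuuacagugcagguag
miR-20a-5p: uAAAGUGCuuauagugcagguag
miR-106a-5p: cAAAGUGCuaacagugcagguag
miR-20b-5p: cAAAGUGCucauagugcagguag
The miR-18 members come from the same 2 clusters, with miR-18a-5p on chromosome 14 and miR-18b-5p on X.
miR-18a-5p: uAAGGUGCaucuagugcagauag
miR-18b-5p: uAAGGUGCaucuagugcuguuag
The miR-92 seed is carried by miR-363-3p on X, by miR-92a-3p, which has a locus in each cluster, and by miR-92b-3p, which lies outside both clusters on chromosome 3.
miR-363-3p: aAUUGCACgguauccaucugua
miR-92a-3p: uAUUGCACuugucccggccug
miR-92b-3p: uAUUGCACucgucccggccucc
The thymocyte miRNA miR-181a-5p and the skeletal muscle miRNA miR-206-3p complete the set.
miR-181a-5p: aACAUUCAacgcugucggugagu
miR-206-3p: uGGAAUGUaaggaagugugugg
On GRCm38 the mature arms of the X cluster span chrX:52741697-52742563 and those of miR-17-92 span chr14:115043684-115044496. The X-linked arms were set apart from their chromosome 14 relatives by few bases, and the counting by the authors may split reads between them, so single members are less certain than the family.

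Members of both clusters were lower in FL thymus than in either ground arm, and for 4 of them the difference from VGC passed the test outside the pools. Values are counts per 1000000 miRNA counts with TMM scaling (CPM), and log2 fold changes with their standard errors (SE) come from edgeR's quasi-likelihood test with Benjamini-Hochberg adjustment over all miRNAs tested. miR-106a-5p ranged from 346 to 823 CPM in the 8 FL libraries (median 495), from 484 to 2230 in 9 HGC (median 795) and from 587 to 2089 in 7 VGC (median 1655). Its FL range overlapped both ground ranges, with FL 5 the highest of the FL libraries. The log2 fold change was -1.52 ± 0.29 against VGC (edgeR adjusted p = 0.012) and -1.12 ± 0.28 against HGC (edgeR adjusted p = 0.076). miR-17-5p ranged from 1926 to 2915 CPM in FL (median 2411), from 2014 to 8137 in HGC (median 3732) and from 3011 to 8271 in VGC (median 6531). Every FL library lay below every VGC library, while FL and HGC overlapped at the low end of HGC. It fell by 1.24 ± 0.25 on the log2 scale against VGC (edgeR adjusted p = 0.014) and differed by -0.76 ± 0.24 from HGC (edgeR adjusted p = 0.101). miR-20b-5p ranged from 413 to 1283 CPM in FL (median 532), from 581 to 3962 in HGC (median 1520) and from 1042 to 3130 in VGC (median 2342). Its FL and VGC ranges overlapped only through FL 5, the highest FL library, and the log2 fold change was -1.64 ± 0.36 against VGC (edgeR adjusted p = 0.016) and -1.35 ± 0.34 against HGC (edgeR adjusted p = 0.076). miR-18a-5p, at 290 to 800 CPM in FL (median 384) and 402 to 1548 in VGC (median 1215), fell by 1.25 ± 0.32 against VGC (edgeR adjusted p = 0.041). Another miRNA that fell, miR-301b-3p of the miR-130 family, was scarce, at 7.29 to 22.2 CPM in FL (median 13.5) and 15.3 to 55.9 in VGC (median 32.9), with a log2 fold change of -1.39 ± 0.35 (edgeR adjusted p = 0.041).

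These 5 miRNAs that fell (0.825% of the 606 tested) and 3 that rose (0.495%) make up the 8 calls of edgeR (1.32%) outside the pools in FL against VGC, where DESeq2 called 50. Against HGC edgeR called 0 of 606 (0.0%) with 108 at an unadjusted p under 0.05, and DESeq2 called 21. With all 30 libraries edgeR called 0 of 596 in either comparison (0.0%), with 82 against HGC and 27 against VGC at an unadjusted p under 0.05, and DESeq2 called 6 and 4. The directions were the same with all 30 libraries, where miR-106a-5p differed by -1.27 from HGC and -1.48 from VGC, miR-20b-5p by -1.45 and -1.58, and miR-17-5p by -0.68 and -0.93. Outside the pools miR-106a-5p and miR-17-5p stayed below the threshold against VGC with each of the 15 FL and VGC libraries left out in turn, miR-20b-5p lost its call without VGC 5 or VGC 14, and miR-18a-5p and miR-301b-3p lost theirs in 10 and 8 of the 15. The number of calls moved with single libraries, to 37 against VGC and 22 against HGC without FL 5, to 35 against VGC without VGC 11 and to 2 without VGC 5. Scaled to the total of the 7 classes instead of TMM, edgeR called 0 miRNAs in FL against VGC outside the pools (78 at an unadjusted p under 0.05), with all members of both clusters still below 0. Plates were unevenly spread over the arms. Outside the pools FL 1, FL 5 and FL 13 shared no plate with a VGC library, and VGC 11 none with an FL library. Arm and plate thus cannot be fully told apart. With plate as a covariate outside the pools edgeR called 0 of 606 miRNAs against VGC (92 at an unadjusted p under 0.05), so all 8 calls were lost. The log2 fold changes against VGC in that fit were -1.47 for miR-106a-5p (edgeR adjusted p = 0.124), -1.09 for miR-17-5p (edgeR adjusted p = 0.173) and -1.36 for miR-20b-5p (edgeR adjusted p = 0.255). Both comparisons share the same FL libraries, so they are not independent of each other.

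**Figure D1:**
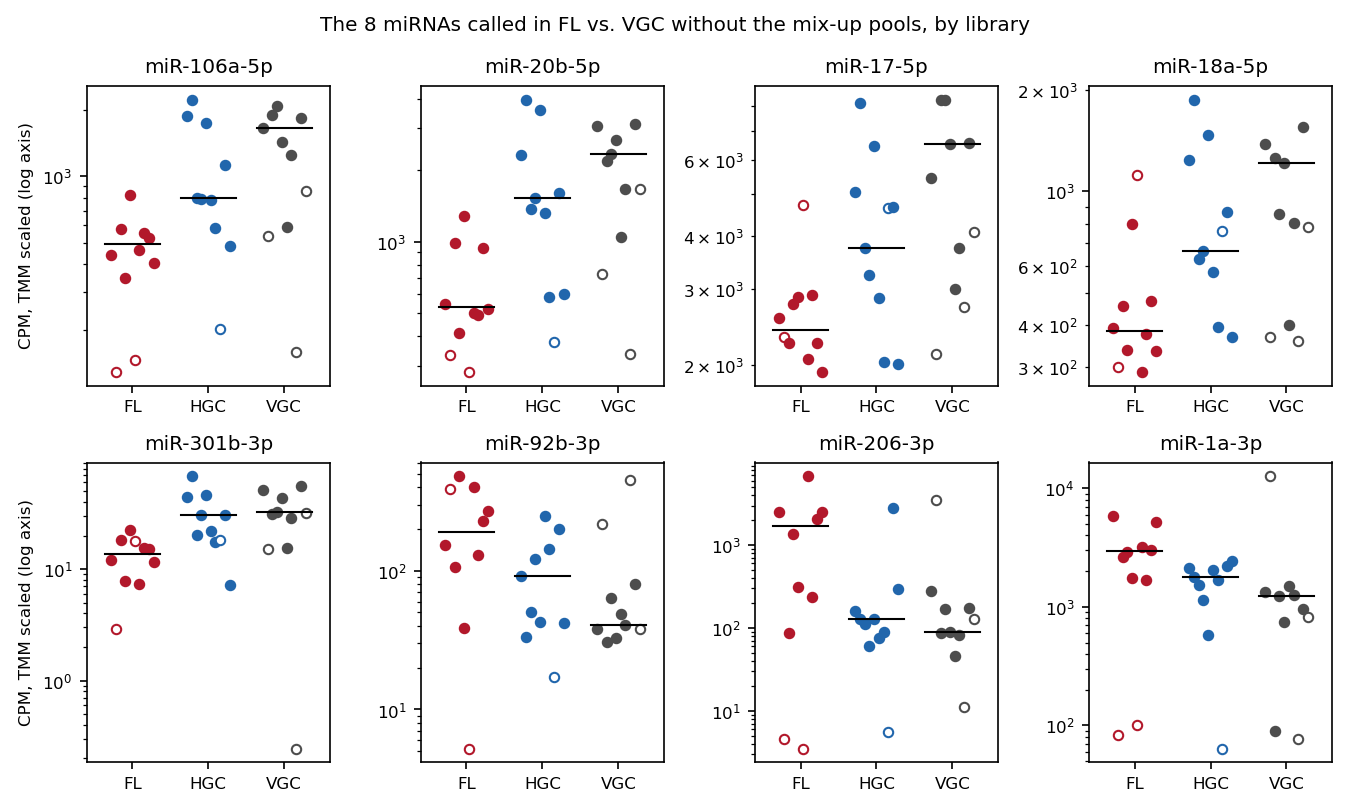
CPM with TMM scaling (log axis) of the 8 miRNAs called in FL against VGC outside the pools, with 1 dot per library of FL, HGC and VGC. Open dots are libraries of the left-out pools and the line is the median of the others. For miR-17-5p the 8 filled FL dots, up to 2915 CPM, lie below all 7 filled VGC dots, from 3011 CPM upward.

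The remaining members of the clusters were also lower in FL than in either ground arm, without passing the test in the edgeR fit of the arms alone. In miR-106a-363, 6 of 6 members were below 0 in both comparisons, with a median log2 fold change of -1.21 against HGC and -1.37 against VGC, beside medians of -0.04 and 0.01 over all miRNAs tested (0.07 and 0.11 when scaled to the 7-class total). Of the 6, 5 were lower at an unadjusted p under 0.05 in each comparison, beside 10.4% of all miRNAs against HGC and 9.74% against VGC. miR-18b-5p differed by -1.51 ± 0.41 from VGC (edgeR adjusted p = 0.052) and miR-363-3p by -1.23 ± 0.39 (edgeR adjusted p = 0.088), with FL medians of 11.9 and 145 CPM against VGC medians of 46.1 and 544. In miR-17-92 the 6 members were also all below 0, at a median of -0.84 against HGC and -1.02 against VGC. miR-19b-3p and miR-92a-3p belong to both clusters, since each has a locus on chromosome 14 and on X. miR-92a-3p differed least of all members, by -0.47 ± 0.25 from HGC and -0.22 ± 0.26 from VGC. Summed per 1000000 miRNA counts, without TMM scaling, miR-17-92 took 6778 to 13506 in FL (median 9133), 7918 to 20163 in HGC (median 13143) and 12461 to 17246 in VGC (median 15775). Only FL 3 lay above the lowest VGC library. The lncRNA Mir17hg, the host transcript of miR-17-92, differed by -0.54 from HGC and -0.74 from VGC (edgeR adjusted p = 0.796 and 0.534). The third cluster of the family, miR-106b-25, hosted in the replication gene Mcm7, had 3 of 3 members below 0 at medians of -0.39 and -0.51, none of them called.

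In the miR-181 family all 4 members were below 0 in both comparisons, at medians of -0.50 against HGC and -0.78 against VGC, and the edgeR fit of the arms alone to these 24 libraries called none. With age as a covariate outside the pools all 4 were called against VGC. The edgeR adjusted p ran from 0.011 for miR-181c-5p to 0.037 for miR-181d-5p, beside 50 of 606 miRNAs called in that fit. With the mouse number as a block, which also takes up age, miR-181b-5p and miR-181c-5p were called. DESeq2 outside the pools called miR-181b-5p (adjusted p = 0.035). Over 15 alternative fits, with or without the pools, miR-181a-5p was called against VGC in 1, miR-181b-5p in 3, miR-181c-5p in 2 and miR-181d-5p in 1. None of the 4 was called against HGC in these 15 fits. miR-181a-5p ranged from 119200 to 277320 CPM in FL (median 170670), from 69598 to 328080 in HGC (median 160620) and from 133010 to 600480 in VGC (median 257640). The 3 ranges overlapped widely, and the log2 fold change was -0.11 ± 0.28 against HGC (edgeR adjusted p = 0.849) and -0.70 ± 0.29 against VGC (edgeR adjusted p = 0.172). All 4 were lower at an unadjusted p under 0.05 against VGC, beside 9.74% of all miRNAs, and against HGC miR-181b-5p and miR-181d-5p were, at -0.70 ± 0.26 and -0.78 ± 0.28, beside 10.4%. The let-7 family, which is low in dividing precursors and high in mature cells, had 9 of 9 members below 0 against HGC at a median of -0.46 and 5 of 9 against VGC at a median of -0.04, with none called in the fit of the arms alone. Markers of other blood and stromal cells in thymus gave no calls in it either. The median against HGC and VGC was -0.15 and -0.03 for miRNAs of mature lymphocytes such as miR-150-5p and miR-155-5p, -0.43 and -0.48 for the pan-leukocyte miR-142a arms, and -0.02 and -0.29 for the myeloid miR-223 arms. It was 0.06 and 0.00 for epithelial miRNAs, among them miR-205-5p of thymic epithelium, 0.14 and 0.22 for mesenchymal miRNAs, and 0.29 and 0.59 for the red cell miRNAs.

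**Figure D2:**
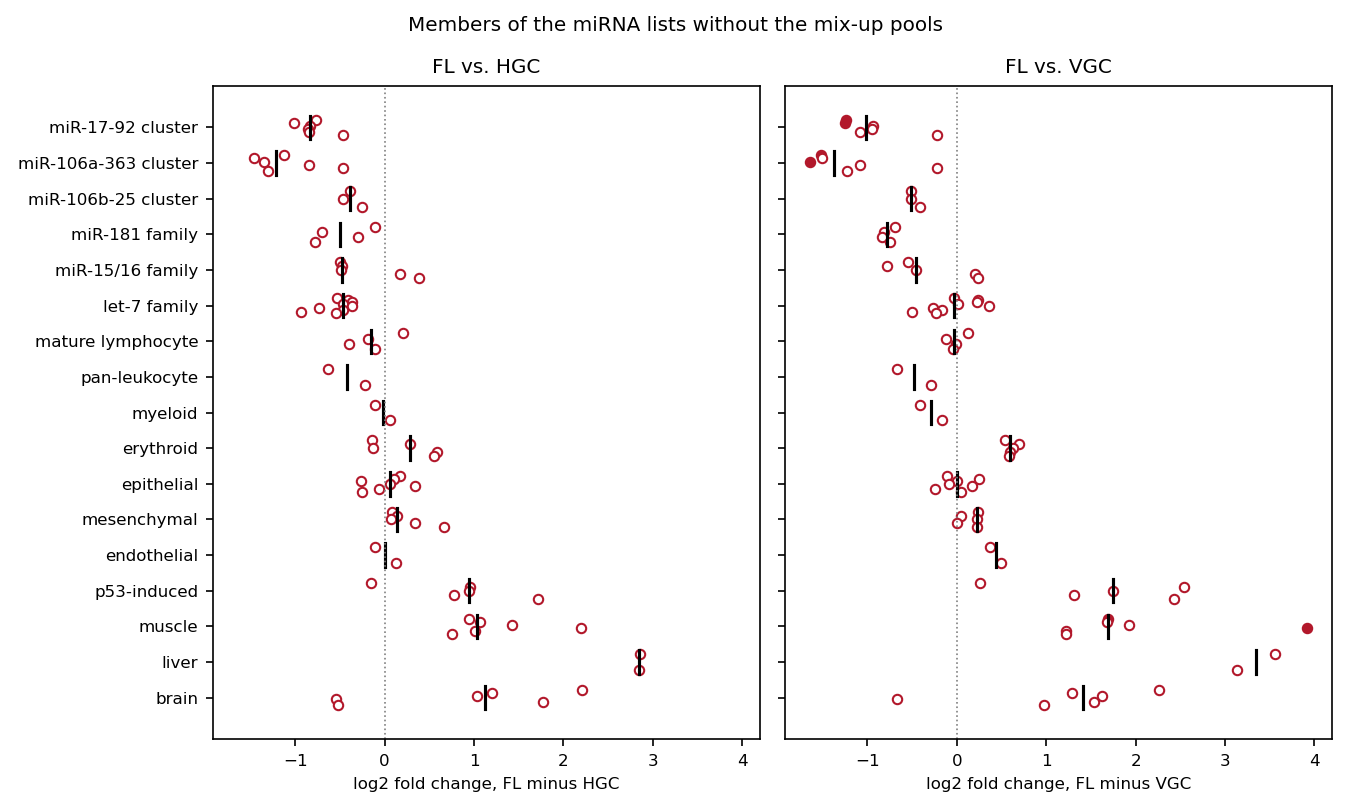
Log2 fold changes of the members of the miRNA lists in FL against HGC and against VGC outside the pools, with 1 dot per miRNA, filled where the edgeR adjusted p was under 0.05, and a bar at the list median. All 6 members of miR-106a-363 and all 6 of miR-17-92 lie below 0, and all 6 tested muscle miRNAs lie above 0.

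The 3 miRNAs that rose against VGC outside the pools were miR-92b-3p and the muscle miRNAs miR-206-3p and miR-1a-3p. miR-206-3p, which is made in skeletal muscle, ranged from 86.6 to 6801 CPM in FL (median 1707), from 60.8 to 2834 in HGC (median 127) and from 45.5 to 275 in VGC (median 89.8). All FL libraries but FL 3 and FL 13 lay above the VGC range, with FL 12 the highest, and in HGC 1 library, HGC 14, stood far above the rest. Its log2 fold change was 3.92 ± 0.93 against VGC (edgeR adjusted p = 0.033) and 2.20 against HGC (edgeR adjusted p = 0.158). miR-1a-3p, of skeletal and heart muscle, ranged from 1679 to 5873 CPM in FL (median 2975), from 583 to 2432 in HGC (median 1777) and from 89.0 to 1487 in VGC (median 1239), so that all FL libraries lay above all VGC libraries. It rose by 1.70 ± 0.41 against VGC (edgeR adjusted p = 0.034) and differed by 0.94 from HGC (edgeR adjusted p = 0.183). With 1 library left out in turn, miR-206-3p lost its call against VGC in 8 of 15 cases and miR-1a-3p in 5, and without the pools and FL 1 no muscle miRNA was called. Of the 7 muscle miRNAs 6 were tested, all above 0, at a median of 1.04 against HGC and 1.69 against VGC, and 6 of 6 were higher at an unadjusted p under 0.05 against VGC, beside 11.6% of all miRNAs (7.43% against HGC, where 3 of the 6 were). In all 30 libraries edgeR called none of the 6, the medians were 0.88 against HGC and 0.78 against VGC, and miR-499-5p turned to -0.80 against VGC. miR-206-3p then differed by 1.82 from VGC, and with plate as a covariate in all libraries miR-1a-3p turned to -0.23 against HGC. Their sum per 1000000 miRNA counts was 5688 to 40785 in FL (median 30586), 4501 to 22616 in HGC (median 11111) and 405 to 23395 in VGC (median 4444). Large thymi were trimmed before extraction, according to the methods. The muscle list thus moved with the arms beside the lower cluster miRNAs, and its part in those results was not tested.

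The sums of other lists, of liver, brain and red cell miRNAs, were also uneven between libraries, and the source of these reads was not tested. The liver list, miR-122-5p and miR-122-3p, summed to 10809 per 1000000 in FL 1 and to at most 846 in any other FL library, and its median log2 fold change of 3.35 against VGC became 0.64 without FL 1. The brain list reached 5172 in FL 1 and 17532 in VGC 2, which is in a left-out pool, and at most 1589 elsewhere. Its median of 1.41 against VGC became 0.54 without FL 1. Without the pools and FL 1, edgeR called 4 miRNAs, 72 tRNAs, 0 snoRNAs and 8 piRNAs against VGC, instead of 8, 76, 219 and 7. The red cell list ranged from 32226 to 68866 in FL (median 52524), from 31859 to 128350 in HGC (median 37706) and from 18687 to 57660 in VGC (median 29950). These ranges are outside the pools, where HGC 16 lay above every FL library and edgeR called no member of the list.

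**Figure D3:**
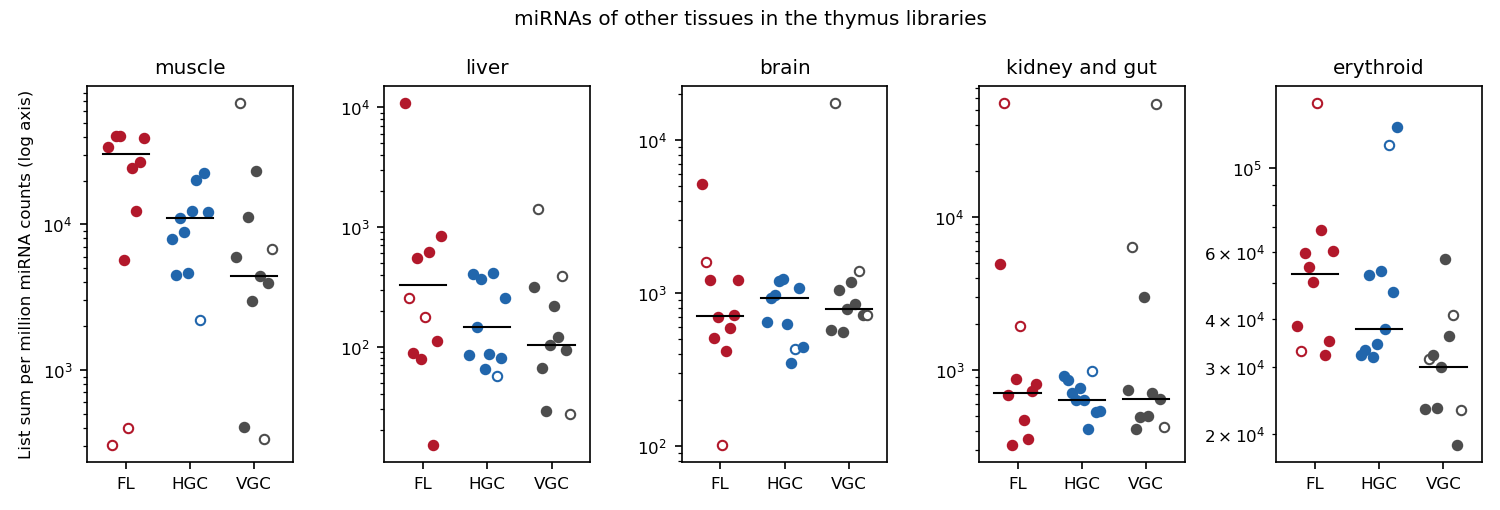
Sums per 1000000 miRNA counts (log axis) of the muscle, liver, brain, kidney and gut, and erythroid miRNA lists, with 1 dot per library of FL, HGC and VGC, open for libraries of the left-out pools, and a line at the median of the others. FL 1 stands at 10809 in the liver list, and the muscle median falls from 30586 in FL to 11111 in HGC and 4444 in VGC.

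miR-92b-3p shares the seed of miR-92a-3p and miR-363-3p but differed in the opposite direction. It ranged from 38.5 to 481 CPM in FL (median 191), from 33.3 to 248 in HGC (median 91.1) and from 30.6 to 80.1 in VGC (median 41.0). All FL libraries but FL 5 lay above the VGC range. The log2 fold change was 2.23 ± 0.49 against VGC (edgeR adjusted p = 0.016) and 1.03 against HGC (edgeR adjusted p = 0.209), and the call against VGC was lost without VGC 5. No member of the miR-34 family, which p53 induces, was called by edgeR in the fit of the arms alone outside the pools. miR-34b-3p ranged from 31.8 to 625 CPM in FL (median 383), from 21.2 to 472 in HGC (median 105) and from 23.1 to 160 in VGC (median 31.8), with a log2 fold change of 2.54 ± 0.70 against VGC (edgeR adjusted p = 0.052). miR-34a-5p, the most abundant member, differed by -0.15 from HGC and 0.26 from VGC. The list of 5 p53-induced miRNAs had a median of 0.94 against HGC and 1.75 against VGC, and 0 and 4 of them were higher at an unadjusted p under 0.05, beside 7.43% and 11.6% of all miRNAs.

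By a fold rule with the thresholds of the study's methods, a log2 ratio of geometric medians beyond 1 with a Cohen's d beyond 0.5, 15 of 993 miRNAs (1.51%) passed against HGC and 13 (1.31%) against VGC in all libraries. This rule uses no p-value. The scale, counts per 1000000 over the 7 classes, and the filter, 5 reads in 10% of any arm, were chosen here, and per 1000000 miRNA counts 17 passed against HGC and 23 against VGC. 9 miRNAs passed in both, of which miR-106a-5p, miR-18b-5p, miR-20b-5p, miR-20b-3p and miR-363-3p, all of the X cluster, were lower in FL, and miR-206-3p, miR-34b-5p, miR-34c-3p and miR-92b-3p were higher. Both comparisons use the same FL libraries. Outside the pools 27 of 937 (2.88%) and 28 (2.99%) passed, and 19 passed in both, 13 higher and 6 lower. The 2-sided Wilcoxon rank-sum test on the same values called 0 of 993 (0.0%) in each comparison, with 30 against HGC and 32 against VGC at an unadjusted p under 0.05.

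Age was tested beside the arms. Outside the pools 119 of 606 miRNAs (19.6%) differed between 8 and 3 months with the arms in the model, 43 higher (7.1%) and 76 lower (12.5%) at 8 months, and 5 of 596 (0.839%), 3 higher (0.503%) and 2 lower (0.336%), with all libraries. At 8 months miR-19b-3p was lower by a log2 fold change of -1.04, miR-181c-5p by -0.94, miR-18a-5p by -0.88, miR-20b-5p by -0.84, miR-181a-5p by -0.74, miR-106a-5p by -0.66 and miR-17-5p by -0.51, all called by edgeR. Both ages were present in each arm. With age as a covariate outside the pools, 8 miRNAs were called against HGC and 50 against VGC. The 8 include miR-106a-5p, miR-18a-5p and miR-20b-5p (edgeR adjusted p = 0.018 each), miR-18b-5p (edgeR adjusted p = 0.020) and miR-301b-3p (edgeR adjusted p = 0.018). DESeq2 outside the pools called the same 5 and miR-363-3p against HGC, at adjusted p from 0.0070 to 0.031. FL against HGC within 1 age gave 0 of 649 calls (0.0%) in all libraries, with 127 at an unadjusted p under 0.05 at 3 months and 30 at 8 months. Leaving out FL 5 at 3 months gave 26 calls and leaving out FL 14 gave 6. Outside the pools miR-106a-5p differed from HGC by -1.46 ± 0.33 at 3 months (edgeR adjusted p = 0.052) and by -0.61 ± 0.31 at 8 months (edgeR adjusted p = 0.597). The difference between the ages was 0.85 ± 0.45 (edgeR adjusted p = 0.65), and no interaction was called in all libraries by edgeR, where 73 of 649 miRNAs had an unadjusted p under 0.05.

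The flight effect on the cluster miRNAs after live return was compared with that in mice killed on the station and their controls. According to the methods, the flight mice returned alive had spent 39.5 days on the station. The mice killed there and their ground controls were killed 22 to 24 days after launch. Each of these arms held mice of 3 and 8 months, and their 28 thymus libraries were taken from frozen carcasses. Of these 28, 24 were closest to thymus in the label check, and 20 lay outside the left-out pools, 19 of them closest to thymus. The exception, HGC 14, is 1 of the 7 HGC libraries there and was closest to lung at r = 0.91, with r = 0.08 to thymus. In the 3-arm model of both, the difference between the FL against HGC effects was called for 3 of 648 miRNAs (0.463%) in all libraries, 2 higher (0.309%) and 1 lower (0.154%) after live return. Outside the pools it was called for 18 of 656 (2.74%), 15 higher (2.29%) and 3 lower (0.457%). The 3 lower were miR-106a-5p at -2.05 ± 0.58 (edgeR adjusted p = 0.044), miR-20b-5p at -2.22 ± 0.61 (edgeR adjusted p = 0.038) and miR-17-5p at -1.45 ± 0.39 (edgeR adjusted p = 0.037). In the mice killed on the station these 3 differed from HGC by 0.88, 0.83 and 0.65, none of them called. Without that lung-like HGC 14 as well, a fit added after the data were seen, the difference between the effects was -1.81 ± 0.40 for miR-106a-5p (edgeR adjusted p = 0.017), -1.97 ± 0.45 for miR-20b-5p (edgeR adjusted p = 0.017) and -1.27 ± 0.35 for miR-17-5p (edgeR adjusted p = 0.047), and 15 miRNAs were called, 9 higher and 6 lower after live return. The effects in the mice killed on the station were then 0.70, 0.65 and 0.53, none of them called. Duration of flight, return to Earth and preservation of the tissue changed together between the groups and cannot be told apart.

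Among the RNA classes, FL thymus had more tRNA and less snRNA reads than VGC thymus outside the pools. Fragments of tRNA arise by cleavage of mature tRNAs and are known to increase under stress, and snRNAs are the RNA cores of the spliceosome. The tRNA share of the counts ranged from 11.7% to 39.8% in FL (median 24.5%), from 9.99% to 44.6% in HGC (median 17.9%) and from 9.29% to 19.8% in VGC (median 11.5%). Means were 25.6% ± 9.57 (SD, n = 8) in FL and 12.3% ± 3.78 (SD, n = 7) in VGC (2-sided exact permutation test, p = 0.00404, adjusted p = 0.0283 over 14 tests). The snRNA share was 15.7% ± 3.97 (SD) in FL and 24.8% ± 4.26 (SD) in VGC (2-sided exact permutation test, p = 0.001865, adjusted p = 0.0261). Both ranges overlapped, from 10.3% to 20.6% for snRNA in FL and from 18.0% to 30.6% in VGC. Against HGC neither share passed, with means of 21.2% for tRNA (exact permutation p = 0.383) and 20.6% for snRNA (exact permutation p = 0.101). With all 30 libraries no share passed after adjustment, and the tRNA shares of 25.2% ± 9.3 in FL and 16.0% ± 10.1 in VGC gave p = 0.0503 (permutation test, 100000 resamples, adjusted p = 0.352). Shares sum to 100, so a higher share of 1 class lowers the rest.

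Relative to the other tRNAs, most copies of tRNA-Cys-GCA and tRNA-iMet-CAT rose against VGC outside the pools. The copies of tRNA-Arg-ACG and some of tRNA-Tyr-GTA fell in that comparison. Outside the pools 54 of 386 tRNA features rose (14.0%) and 22 fell (5.7%) in FL against VGC by edgeR, and 0 (0.0%) were called against HGC, where 78 had an unadjusted p under 0.05 and DESeq2 called 52. Without FL 13 edgeR called 155 against VGC, and without HGC 12 or HGC 16 it called 87 or 69 against HGC. With all 30 libraries 8 rose (2.08%) and 2 fell (0.519%) against VGC. The tRNA genes are near-identical copies that share reads, so counts of features overstate the number of distinct molecules. Of the 53 tested copies of tRNA-Cys-GCA 45 rose, at a median log2 fold change of 1.13, and of the 9 copies of tRNA-iMet-CAT, the tRNA that starts translation, 8 rose at a median of 0.95, beside a median of -0.15 over all tRNAs. All 6 copies of tRNA-Arg-ACG fell at a median of -0.98, as did 4 of 10 tRNA-Tyr-GTA, 3 of 3 tRNA-Pro-CGG and 5 of 6 tRNA-Pro-TGG. Scaled to the total of the 7 classes, where the median over tRNAs against VGC is 0.26, 46 Cys-GCA and 8 iMet-CAT copies rose at medians of 1.52 and 1.37, and no copy of the arginine, tyrosine or proline tRNAs was called, with the median for Arg-ACG at -0.65. The arginine, tyrosine and proline calls thus hold only relative to the other tRNAs.

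Summed per 1000000 tRNA counts, the Cys-GCA copies took 18400 to 38333 in FL (median 28580), 17028 to 23389 in HGC (median 20637) and 13282 to 27922 in VGC (median 17499). The iMet-CAT copies took 38801 to 67361 in FL (median 47222), 14109 to 58618 in HGC (median 32267) and 27054 to 59684 in VGC (median 35418). FL 13 and VGC 4 were the highest of their arms in both sums, and the ranges overlapped. The Arg-ACG copies took 224 to 2249 in FL (median 326), 143 to 1464 in HGC (median 597) and 791 to 4903 in VGC (median 1097), again with FL 13 and VGC 4 at the top. With 1 feature kept for each group of copies whose counts differed by under 5%, 11 of 154 tRNA groups (7.14%) were called against VGC outside the pools, and 5 without VGC 1 to 25 without FL 13 when 1 library was left out in turn. Among the 11 were tRNA-iMet-CAT-1-1 with 8 copies at 1.12 ± 0.24 (edgeR adjusted p = 0.0026), tRNA-Cys-GCA-3-1 with 7 copies at 1.18 ± 0.27 (edgeR adjusted p = 0.0043), tRNA-Cys-GCA-7-1 with 33 copies at 1.07 ± 0.23 (edgeR adjusted p = 0.0026), tRNA-Tyr-GTA-2-1 at -0.86 ± 0.21 (edgeR adjusted p = 0.0072) and tRNA-Arg-ACG-1-1 with 6 copies at -0.84 ± 0.26 (edgeR adjusted p = 0.0393). Without FL 1 as well 6 groups were called, and tRNA-Arg-ACG-1-1 was not among them. Most of the cysteine reads came from the 7 copies of Cys-GCA-3-1, which ranged from 2476 to 4685 per 1000000 tRNA counts for 1 copy in FL and from 1799 to 3642 in VGC. The 33 copies of Cys-GCA-7-1 were scarce, and without TMM scaling their medians of 41.4 in FL and 40.8 in VGC per 1000000 tRNA counts were close.

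**Figure D4:**
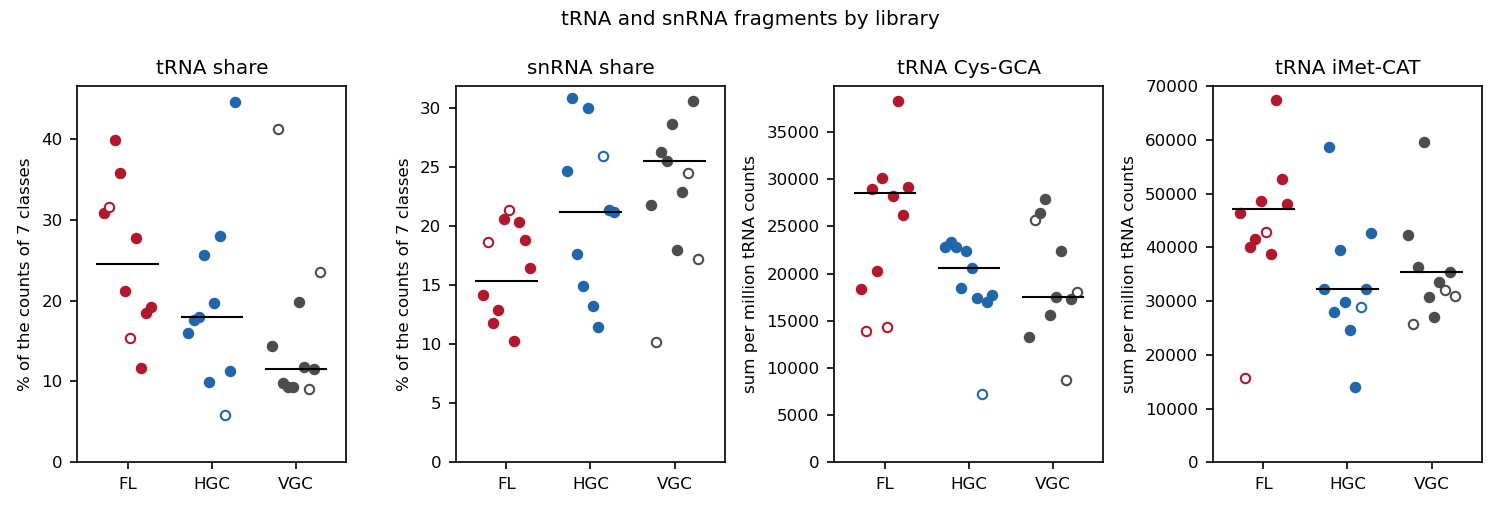
Share of the counts on tRNA and on snRNA (percent) and sums of tRNA-Cys-GCA and tRNA-iMet-CAT per 1000000 tRNA counts, with 1 dot per library of FL, HGC and VGC, open for libraries of the left-out pools, and a line at the median of the others. The tRNA median is 24.5% in FL and 11.5% in VGC, and the Cys-GCA median is 28580 in FL and 17499 in VGC.

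Most snoRNA calls came from 1 stretch of chromosome 7. snoRNAs guide chemical modification of other RNAs, and the imprinted region next to Snrpn on chromosome 7 carries many near-identical C/D box copies that are known to be expressed mainly in brain. Outside the pools 182 of 610 snoRNA features rose (29.8%) and 36 fell (5.9%) against HGC by edgeR, and 204 rose (33.4%) and 15 fell (2.46%) against VGC. With all 30 libraries 0 of 599 were called in either comparison (0.0%), with 181 against HGC and 13 against VGC at an unadjusted p under 0.05, and DESeq2 called 98 and 67. Of those that rose, 170 against HGC and 192 against VGC lie in chr7:59342226-59980945 (GRCm38), which holds 210 features, 194 of them tested. The called copies form 27 and 34 groups of near-identical counts, and with 1 feature kept per group before the fit 6 and 25 of 400 snoRNA groups (1.5% and 6.25%) were called. Per 1000000 snoRNA counts the block took 1071 to 36258 in FL (median 2693), 645 to 3664 in HGC (median 1986) and 655 to 4304 in VGC (median 1635). FL 1, FL 3 and FL 16 were high, at 36258, 14451 and 11098, and the FL median lay inside the ranges of both ground arms. VGC 2, in a left-out pool, reached 182310, and with all 30 libraries the median of the block against VGC was -1.57 instead of 2.32 without all the left-out pools. FL 1 and VGC 2 are also the 2 libraries with the highest brain miRNA sums, and FL 3 and FL 16, at brain sums of 1218 and 1222, were the next highest of the FL libraries outside the pools, where the other 5 had 419 to 722. HGC and VGC libraries outside the pools had brain sums of up to 1246, with no block above 4304. The part of brain tissue in the block was not tested. Without FL 1 the block held 104 calls against HGC at a median of 1.41 and 0 against VGC at a median of 1.25, where edgeR called no snoRNA at all, and with 1 feature kept per group there were 0 calls in either comparison. A second imprinted stretch, chr12:109631074-109689544 (GRCm38), had 6 of 12 tested features higher in each comparison at medians of 0.81 and 0.98, and took 384 to 1137 per 1000000 snoRNA counts in FL (median 755), 211 to 603 in HGC (median 395) and 132 to 432 in VGC (median 376). Both stretches were delimited after the calls were seen. Of 41 H/ACA box snoRNAs tested 39 were below 0 against HGC, at a median of -0.32 beside -0.05 over all snoRNAs. Of the 41, 4 were called lower against HGC, beside 5.9% of all snoRNAs.

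**Figure D5:**
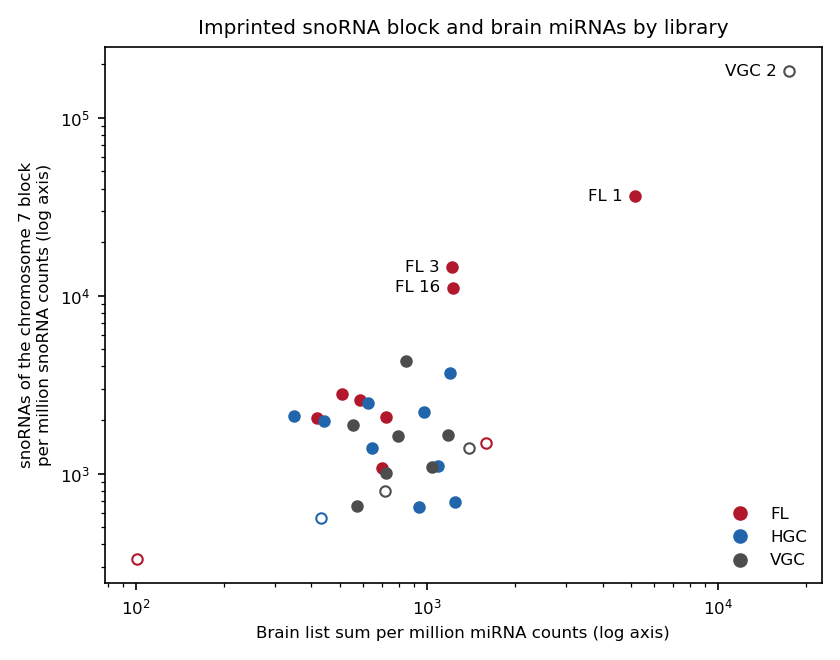
Sum of the chromosome 7 snoRNA block per 1000000 snoRNA counts against the sum of the brain miRNA list per 1000000 miRNA counts (both log axes), with 1 dot per library of FL, HGC and VGC, open for libraries of the left-out pools. FL 1 at 36258 and VGC 2 at 182310 stand high on both axes. FL 3 and FL 16, the next highest of the filled FL dots in the block, are also the next highest filled FL dots on the brain axis, at 1218 and 1222.

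Features annotated as piRNA gave few calls. Outside the pools 9 of 401 fell against HGC (2.24%) by edgeR, and 3 rose (0.748%) and 4 fell (0.998%) against VGC. With all 30 libraries 7 of 397 fell against HGC (1.76%) and none was called against VGC (0.0%), where 20 had an unadjusted p under 0.05. With 1 library left out in turn outside the pools, edgeR called 0 to 13 against HGC, 0 of them without FL 3 or without FL 12, and 4 to 16 against VGC, 4 without FL 3 or VGC 14 and 16 without VGC 11. piR-1076 ranged from 549 to 1644 CPM of the piRNA counts in FL (median 1106), from 1450 to 3562 in HGC (median 2382) and from 1003 to 3367 in VGC (median 2469), and fell by 1.30 ± 0.27 against HGC (edgeR adjusted p = 0.014) and by 1.28 ± 0.28 against VGC (edgeR adjusted p = 0.009). piR-1213 fell by 0.89 ± 0.24 and 1.16 ± 0.25 (edgeR adjusted p = 0.040 and 0.009) and was scarce, at a median of 27.2 CPM in FL, 50.6 in HGC and 66.9 in VGC. oocyte_piRNA1710 rose by 1.61 ± 0.35 against VGC (edgeR adjusted p = 0.009), from a median of 4888 CPM in VGC to 16771 in FL, and HGC lay between them at 9284. Of the 9 that fell against HGC, 6 were highest in HGC 16 among the HGC libraries. For 2 of them HGC 16 held over 10 times the next HGC library, at 4005 against 97.0 per 1000000 piRNA counts for oocyte_piRNA1459 and 2606 against 70.7 for oocyte_piRNA2205, and 5 piRNAs were called without HGC 16. Among the 9, piR-1093, oocyte_piRNA3081 and piR-1076 had similar counts in many libraries, such as 1129, 1010 and 964 per 1000000 piRNA counts in FL 1. In HGC 16 they stood apart, at 10465, 8356 and 3864. Whether they share reads was not tested, so the 9 need not be distinct molecules. Whether the called fragments are piRNAs, which are chiefly made in the germ line, or pieces of other RNAs was not tested. With the arms alone in the model, edgeR called no rRNA, snRNA or lncRNA in either comparison outside the pools (0.0% of 166, 693 and 1642). With age as a covariate it called 129 snRNAs, all higher, and 3 lncRNAs, all lower, against VGC. With the mouse number as a block, which also takes up age, it called 71 snRNAs against VGC, all higher. The median log2 fold change over snRNAs against VGC was 0.25 with age as a covariate and TMM scaling, and -0.35 with the arms alone scaled to the 7-class total, where none was called. With 1 library left out in turn there were 0 to 5 lncRNA calls against VGC, the 5 without FL 3. At an unadjusted p under 0.05 there were 1, 40 and 162 of them against HGC and 4, 86 and 159 against VGC, and DESeq2 called 7 lncRNAs against HGC and 6 against VGC. Between HGC and VGC edgeR called 0 features of the 7 classes outside the pools (0.0%), with 39 miRNAs, 71 tRNAs, 64 snRNAs, 22 snoRNAs, 36 piRNAs, 73 lncRNAs and 0 rRNAs at an unadjusted p under 0.05. With all 30 libraries 3 snoRNAs were higher (0.501%) and 189 lower (31.6%) in HGC than in VGC, and 1 piRNA was higher (0.252%), with 0 calls in the other classes (0.0%). At an unadjusted p under 0.05 those classes held 56 miRNAs, 7 tRNAs, 1 rRNA, 63 snRNAs and 68 lncRNAs.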

How the data were processed

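Small RNA libraries of whole thymus were made with an MGIEasy kit and sequenced on a BGISEQ instrument. The authors mapped reads with miRMaster 2.0 to GRCm39 and miRBase 22.1, and deposited 1 raw count table per RNA class. Deposited miRNA values include estimated counts, fractional in 0.817% of values and rounded here, and the other classes hold whole counts. How reads shared between copies were split is not given in the sources used here. The miRNA columns of other tissues served only the label check, and the tables of the other classes hold 3768 columns of other tissues that were not used.

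Members and lists were chosen with earlier results of these data known. edgeR 4.0.16 (R 4.3.3, TMM scaling, quasi-likelihood test, Benjamini-Hochberg adjustment within a class) was fitted to the 3 arms without covariates, keeping features that passed edgeR's filter on low counts, and called features at an adjusted p under 0.05. The fold rule took its thresholds from the study's methods and used, by choice here, counts per 1000000 over the 7 classes, with 1 added, of miRNAs with 5 reads in at least 10% of any arm. DESeq2 1.42.0 was an alternative. Shares were compared by permutation tests in scipy 1.17.1. Fits were tested on simulated data. p-values measure the spread between mice. Named are the members of the lists, the 10 miRNAs and 3 features of each other class with the smallest p in each comparison, miRNAs past the fold rule in both comparisons, and the most abundant features. Promoter and hairpin sequences were not used. Places of snoRNAs come from GENCODE M21 (GRCm38).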

Additional observations from a re-analysis of the deposited data

Results flagged for a closer look

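In groups of 10 libraries, 21 of 84 had a highest or lowest library separated from the rest by more than Dixon's 95% critical value. For normally distributed values chance gives this in about 1 in 20 groups. These groups hold untransformed counts, sums and shares of the same libraries, so the 21 cannot be set against that rate. VGC 2, a left-out library closest to brain, stood apart most often. It held 41.18% tRNA (next 23.57%), 12680 CPM of miR-1a-3p (next 1487), 3458 CPM of miR-206-3p (next 275.3), and sums per 1000000 miRNA counts of 68120 for muscle, 1408 for liver and 17530 for brain. The left-out FL 2 and VGC 13, closest to kidney, held 55600 and 55220 per 1000000 of the kidney and gut list, and VGC 13 held 450.7 CPM of miR-92b-3p. The left-out FL 11 and HGC 13, closest to spleen, were high in the inflammation list at 13950 and 11510 and low in the epithelial list at 4485 and 1274 per 1000000, and FL 11 was high in the erythroid list at 148000 per 1000000 and in miR-17-5p at 4709 CPM.

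Among libraries outside the pools, FL 1 stood apart in the liver list at 10810 and the brain list at 5172 per 1000000, FL 12 in miR-206-3p at 6801 CPM and HGC 14 in miR-206-3p at 2834 CPM (next 293.3). HGC 16, with few miRNA counts, held 6.788% snoRNA (next 23.15%) and 4.411% piRNA (next 2.056%).

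With all libraries, the FL against HGC effect differed between live return and mice killed on the station by 7.16 for miR-122-5p (edgeR adjusted p = 0.0144), 5.84 for miR-122-3p (edgeR adjusted p = 0.025) and -4.19 for miR-7033-5p (edgeR adjusted p = 0.0392) on the log2 scale. Both miR-122 arms are liver miRNAs and were highest in FL 1. The part of that library in the difference was not tested.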

How the results depend on the processing

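Counts below are calls in FL against HGC first and against VGC after it, unless 1 arm is named, and every fit that combines the left-out pools with a second change, leaves out FL 1 or the 5 libraries closest to another tissue, or keeps 1 feature per group of near-identical ones was added after the data were seen. Leaving out the pools raised the tRNA share difference from VGC to 13.3 percentage points and that of snRNA to -9.13, turned that of rRNA to 0.355, and gave 27 and 28 miRNAs past the fold rule, 8 miRNA calls against VGC, 76 tRNA calls against VGC, 218 and 219 snoRNA calls, 7 piRNA calls against VGC, 119 age calls and 18 calls for live return minus death on the station. The fold rule passed 8 miRNAs against VGC with 10 added and 23 per 1000000 miRNA counts. With DESeq2 on all 30 libraries there were 6 and 4 miRNA, 18 and 30 tRNA, 98 and 67 snoRNA, 14 piRNA (HGC) and 2 lncRNA (VGC) calls, and outside the pools 21 and 50 miRNA, 52 and 107 tRNA, 243 and 245 snoRNA, 14 and 18 piRNA, and 7 and 6 lncRNA calls. RLE scaling gave 2 miRNA calls against HGC and 0 tRNA calls against VGC. Scaling to the 7-class total gave 0 tRNA calls against VGC and 1 piRNA call against HGC with all libraries, and outside the pools 86 tRNA calls (VGC), 179 and 99 snoRNA calls, and 0 and 2 piRNA calls. Without the low-count filter there were 0 tRNA calls (VGC), 36 and 6 piRNA calls and 1 lncRNA call (HGC). FL against the mean of both ground arms gave 9 tRNA and 0 piRNA calls.

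With age as a covariate outside the pools there were 8 and 50 miRNA, 53 and 86 tRNA, 231 and 245 snoRNA, 129 snRNA (VGC), 11 piRNA (VGC) and 3 lncRNA (VGC) calls. With plate as a covariate outside the pools there were 1 miRNA call against HGC and 0 against VGC, where 8 were called without it. Without the 5 libraries closest to another tissue there were 1 and 16 miRNA, 94 tRNA (VGC), 224 and 225 snoRNA, and 4 and 10 piRNA calls. Without the pools and the lung-like HGC 14 of the mice killed on the station there were 15 calls for live return minus death on the station. Without the pools and FL 1 there were 4 miRNA (VGC), 72 tRNA (VGC), 125 and 0 snoRNA, and 3 and 8 piRNA calls. With 1 feature kept per near-identical group there were 0 tRNA calls against VGC with all libraries, 6 and 25 snoRNA and 12 and 9 piRNA calls outside the pools, and 6 tRNA (VGC) and 3 and 8 piRNA calls without FL 1 as well. With 1 library left out in turn, all-library calls ranged from 0 to 2 for miRNA in both comparisons, from 0 to 8 and 0 to 130 for tRNA, and from 0 to 188 for snoRNA against VGC, reached without VGC 2. The fits within 1 age gave 0 to 26 calls at 3 months and 0 to 2 at 8 months. The cause of these changes was not tested.

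Mice of different arms that share a number are different animals of the same age. The pairing thus rests on the number and on age, and the block also takes up age. Over 10 pairs of FL and HGC libraries, 4 had correlated deviations above 0.1 (range -0.557 to 0.523), and likewise 4 of 10 pairs of FL and VGC (-0.383 to 0.513). With the mouse number as a replicate block there were 3 piRNA calls against HGC with all libraries, and outside the pools 44 miRNA (VGC), 65 and 117 tRNA, 71 snRNA (VGC) and 7 and 12 piRNA calls, and 0 and 0 snoRNA calls in place of 218 and 219, with 150 and 182 snoRNAs at an unadjusted p under 0.05.

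Depth limits scarce features most in HGC 12 and HGC 16, with 1.06 M and 1.36 M miRNA counts (M, 1000000).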
